A study of Mus musculus with 6 samples.

Results

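The genes described here are the cyclins and cyclin-dependent kinases of the mouse, 47 of the 53379 genes counted in each library. They were chosen by symbol alone, as every gene named Ccn followed by letters and at most 1 digit or Cdk followed by a number, with pseudogenes left out, which gave 28 cyclin symbols and 19 kinase symbols. One of the cyclin symbols, Ccndbp1, encodes a protein that binds D-type cyclins and is not itself a cyclin. The RNA came from Min6, an established mouse insulinoma line used as a model of the pancreatic beta cell, at passage 31. All cells of both groups had been kept for 30 h in 25 mM glucose with 500 µM palmitic acid, a high-glucose and high-fat load called glucolipotoxicity, so no group was without the load. One group was RNA recovered with an antibody against the RNA-binding protein hnRNPK from lysate holding 200 µg of protein (3 libraries, hnRNPK IP 1 to 3), and the other was total RNA of the lysate, taken as 10% input (3 libraries, total RNA 1 to 3). The comparison asks which transcripts are over- or under-represented in the hnRNPK precipitate relative to the lysate. No precipitate made with a control antibody was analysed here, so RNA held by the beads or the antibody counts as part of the IP signal.

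Cyclins are regulatory subunits that switch on cyclin-dependent kinases. One branch of the family drives the cell cycle: D-type cyclins with Cdk4 or Cdk6 phosphorylate Rb in G1, E-type cyclins with Cdk2 start S phase, and A- and B-type cyclins with Cdk2 or Cdk1 carry the cell through S phase, G2 and mitosis. The other branch acts on RNA polymerase II and on splicing (cyclins C, H, K, L and T with Cdk7, Cdk8, Cdk9, Cdk11, Cdk12 or Cdk13). In the beta cell, Ccnd2 and Cdk4 are known as main drivers of proliferation. hnRNPK is a protein with KH domains that binds runs of C in single-stranded RNA.

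The libraries held 38764925 to 52735957 counted reads each. Levels are given in CPM, counts scaled to the size of each library with edgeR's TMM factors. Summed over 9 beta cell markers, they ran from 5956 to 7339 CPM in the IP and from 21578 to 31055 CPM in total RNA. Ins2 and Iapp held most of the total RNA sum, with means of 10465 and 14153 CPM, against 1952 and 1460 CPM in the IP. By gene, 5 of the 9 had every IP library above every total RNA library and 4 had every one below (32.2% and 39.3% of all genes tested). The 7 exocrine and duct markers summed to 0.118 to 1.21 CPM in the IP and 0.433 to 0.630 CPM in total RNA, with Cpa1, Prss2, Amy2b and Pnlip at 0 reads in every library. Among the markers of other islet cells, Gcg, which encodes glucagon, was the one with a high level (145 ± 24.5 CPM in the IP and 151 ± 17.3 CPM in total RNA, SD, n = 3 each), and Sst, Ppy and Ghrl had means of at most 2.14 CPM. The 8 stromal, endothelial and immune markers summed to 6.46 to 8.53 CPM in the IP and 2.95 to 4.47 CPM in total RNA. The part of these cells in the results below was not tested. Nothing in the labels states that the replicates came from different cultures, and the p-values below then reflect library-to-library spread that could be purely technical.

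The stretch of 30 bases with the most C in the longest annotated 3′ UTR is shown for some paralogs that were called in opposite directions, since runs of C are the kind of sequence hnRNPK is known to bind. The windows below were chosen after the values were seen. They are from GENCODE M21 on GRCm38 (mm10), are read 5′ to 3′ on the strand of the gene, and carry runs of 3 or more C in capitals. The 3 PCTAIRE kinases come first (Cdk18 at chr1:132112357-132112386, minus strand; Cdk16 at chrX:20698771-20698800, plus strand; Cdk17 at chr10:93239643-93239672, plus strand), then the G cyclins (Ccng1 at chr11:40749895-40749924, minus strand; Ccng2 at chr5:93275076-93275105, plus strand), the T cyclins (Ccnt1 at chr15:98542919-98542948, minus strand; Ccnt2 at chr1:127803617-127803646, plus strand) and the transcripts with the highest and the lowest enrichment in the family (Ccnk at chr12:108202867-108202896, plus strand; Cdk1 at chr10:69336580-69336609, minus strand).
Cdk18: CCCCtgCCCCCtgCCCCttgCCCCCtCCCC
Cdk16: ccacactCCCCtgccaacttgtCCCCtgcc
Cdk17: caagCCCagctccagcctttcttatcagcc
Ccng1: ctcacatatgcacatacctcaccaCCCCCC
Ccng2: gtccagCCCCCgtctagacaggaatttcac
Ccnt1: acacactctactcttggcctctcttcatcc
Ccnt2: aacgCCCtcctggtccggcggtggtgccac
Ccnk: cacatccagtCCCCgctgccgtctgtgtcc
Cdk1: ccgccgcagcgctccattggtctcagCCCC
The Cdk18 window holds 22 C, a number reached by 3.06% of the 19888 3′ UTRs of at least 100 bases in the annotation. The Cdk16 window holds 17 C (30.6% of 3′ UTRs reach it) and the Cdk17 window 13 C (76.4%). Ccng1 has 16 C (41.9%) and Ccng2 has 11 C (90.3%). The T cyclins differ by 1 base, with 13 C in Ccnt1 and 12 C in Ccnt2. Ccnk, at the top of the family, has 14 C and Cdk1, at the bottom, has 15 C. Counted as CCCC per kb, Ccnk has 12.2 in the 3′ UTR and 29.7 in the coding sequence. Cdk1 has 4.77 and 0. Among members not printed here, some followed an order by C and others did not. The enriched Cdk14 has 21 C, while the depleted Ccnl1 and Ccnh have 11 each. On the other side, the Cdk13 window has 22 C and that of the more enriched Cdk12 has 15. Ccnd3 (not called) has 19 and the enriched Ccnd2 has 18. The enriched Ccni has 11, but 9.99 CCCC per kb over its longest protein-coding transcript. Whether C content bears on these values was not tested. Spearman's rho of the number of C in the window with the log2 fold change (IP over total RNA) was 0.35 over 46 tested members and 0.48 over 12983 genes.

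Both branches of the family were split in the precipitate. Ccnk, Cdk18, Ccni, Cdk12, Ccnd2, Cdk6, Cdk16, Cdk14, Ccnc, Ccng1, Cdk13, Ccnt1, Ccnyl1 and Ccny were enriched, and 20 others, from Cdk1 at the low end to Cdk8, were depleted. Of the 46 members with enough reads to test, 14 were enriched (30.4%) at an adjusted p under 0.05 (edgeR quasi-likelihood test, Benjamini-Hochberg over all genes tested), against 28.9% of the 16929 genes tested, and 20 were depleted (43.5%), against 33.6%. Together, 62.4% of all genes were called in 1 direction or the other, so a call as such was the usual outcome in this comparison. The shares lie near those of all genes for enrichment and above them for depletion, and no test of that difference was made. Counted by size, 9 members were called and enriched more than 2-fold (19.6%, against 19.6% of all genes), and 16 were called and depleted more than 2-fold (34.8%, against 24.5%). The median log2 fold change (IP over total RNA) was 0.01 over the tested members (−0.42 to 0.10 over the alternative analyses) and −0.07 over all genes (−0.51 to 0.10). The IP and total RNA libraries did not overlap for 38 members (82.6%; 16 with the IP above, 22 with the IP below), against 71.4% of all genes. Enrichment is relative to all other RNA of the same libraries, since no added standard is named in the labels, and with library totals alone in place of edgeR's TMM factors the median of all genes moved by −0.43 on the log2 scale.

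**Figure D1:**
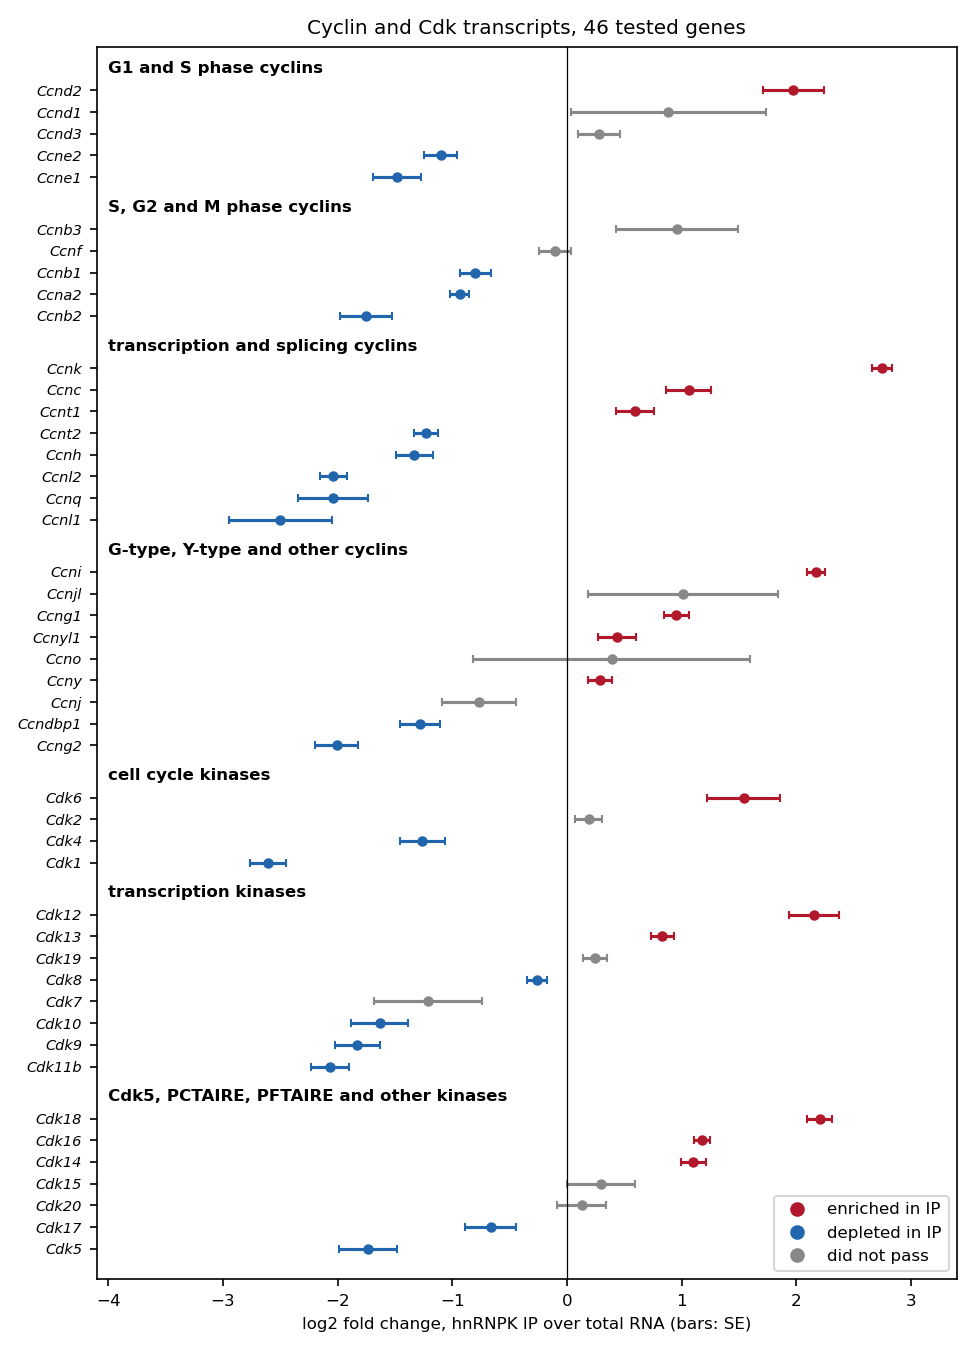
Log2 fold change (hnRNPK IP over total RNA, x axis) of the 46 tested cyclin and Cdk genes, grouped by role, with bars for the SE and colour for the call at an adjusted p under 0.05. Ccnk is farthest to the right at 2.75 and Cdk1 farthest to the left at −2.60, and most groups hold points on both sides of 0.

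One member, Ccna1, the germ-line A-type cyclin, was not tested. It had 0 reads in the 3 IP libraries and 2 reads in all of total RNA. A count of 0 in the IP allows up to 3 reads, or 0.0280 CPM over the group, counting error alone. Replicates agreed less closely in the precipitate than in the lysate: the median coefficient of variation of the tested members was 22.0% in the IP and 7.15% in total RNA, with 22.1% and 10.4% over all genes.

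In the lysate, levels per exon length (CPM divided by kilobases of merged exon, RPKM) put Ccni first at 114 ± 5.44 (SD, n = 3). Cdk16 (60.4 ± 1.32) and Ccng1 (59.2 ± 6.87) came next and did not differ beyond their spread. They were followed by Ccna2 at 48.8 ± 0.124, Ccnd2 at 43.6 ± 12.4, Cdk4 at 39.3 ± 3.98, Ccnb2 at 36.8 ± 4.06 and Cdk11b at 30.97 ± 0.995 RPKM. The spread of Ccnd2 covers the means of Ccna2, Cdk4 and Ccnb2. At the low end of the tested members, Ccnd1, Cdk6, Ccnjl, Ccno and Ccnb3 had 0.0871, 0.122, 0.155, 0.171 and 0.218 RPKM. These 5 were the tested members under 5 CPM in total RNA, and 1 of them, Cdk6, was called. The levels are of bulk RNA, in which fewer expressing cells and less RNA per cell cannot be told apart.

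Among the G1 cyclins, Ccnd2 transcripts were enriched 3.93-fold, while the E cyclins were depleted and Ccnd3 did not pass the test. Ccnd2 (ENSMUSG00000000184.12, chr6:127125162-127152193 on the minus strand) had 1559, 2135 and 1138 CPM in the 3 IP libraries and 543, 325 and 363 CPM in the 3 total RNA libraries. Its lowest IP library lay above its highest total RNA library. The log2 fold change was 1.97 ± 0.27 (SE, n = 3 against 3; edgeR quasi-likelihood adjusted p = 0.000331). Ccnd2 was by far the main D-type cyclin of these cells: per exon length it gave 92.0% ± 2.37 of D-cyclin reads in total RNA and 97.3% ± 1.23 in the IP. Ccnd3 gave 7.78% ± 2.34 and 2.62% ± 1.12. The divisor was the merged exons of all isoforms, 9409 bases in Ccnd2 and 8775 in Ccnd3. Their longest protein-coding transcripts have 6330 and 2113 bases, so the share of Ccnd3 would be higher per transcript length.

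Ccnd3 had 44.3, 27.7 and 38.9 CPM in the IP and 27.1, 31.1 and 33.4 CPM in total RNA, and the groups overlapped through IP 2. Its log2 fold change of 0.28 ± 0.18 did not pass (edgeR adjusted p = 0.226). Without IP 2 it did (0.45, edgeR adjusted p = 0.0108). Ccnd1, which is the D-type cyclin of many other tissues, was rare, with 0.325, 0.273 and 1.67 CPM in the IP and 0.466, 0.445 and 0.320 CPM in total RNA. A single library decided its value, since 67 of its 87 IP reads were in IP 3, and the log2 fold change of 0.88 ± 0.85 (edgeR adjusted p = 0.401) became −0.52 without that library. In addition, 23.4% of the Ccnd1 exons lie opposite exons of LTO1, a neighbouring gene on the other strand.

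Ccne1 and Ccne2, the partners of Cdk2 at the start of S phase, were both depleted. Ccne1 had 23.7, 14.5 and 25.3 CPM in the IP and 54.2, 63.3 and 60.0 CPM in total RNA, 2.79-fold lower in the precipitate (log2 fold change −1.48 ± 0.21, edgeR adjusted p = 0.000373). Ccne2 had 39.3, 28.4 and 40.6 CPM in the IP against 78.4, 77.5 and 76.4 CPM (−1.10 ± 0.14, edgeR adjusted p = 0.000273). Every IP library was below every total RNA library for both genes. The list of G1 and S phase cyclins thus had 1 enriched and 2 depleted of 5 tested (28.9% and 33.6% of all genes tested). Its median log2 fold change was 0.28. That median rests on single genes: it was −0.52 without IP 3, −0.34 with a filter at a mean of 1 CPM, −0.16 with library totals alone and −0.08 with an offset for gene length. Without IP 2, 2 of the 5 were enriched.

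The cyclins of S phase, G2 and mitosis were depleted where they were called. Ccna2, which pairs with Cdk2 and Cdk1, was at 100.1, 102 and 111 CPM in the IP and 199.8, 199 and 199 CPM in total RNA (log2 fold change −0.93 ± 0.08, edgeR adjusted p = 2.97e-05). Ccnb1 and Ccnb2 are the mitotic partners of Cdk1. Ccnb2 had 12.5, 14.6 and 22.9 CPM in the IP and 49.3, 60.6 and 59.4 CPM in total RNA (−1.75 ± 0.23, edgeR adjusted p = 0.000254), and with an offset for gene length it was at −0.81 (edgeR adjusted p = 0.00184). Ccnb1 had a smaller log2 fold change of −0.80 ± 0.13 (edgeR adjusted p = 0.00105). The IP libraries were below the total RNA libraries in each of these 3 genes without overlap.

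Cyclin F and Ccnb3 did not pass. Ccnf, the F-box subunit of a ubiquitin ligase, had 90.5, 68.1 and 94.6 CPM in the IP and 83.3, 94.4 and 94.4 CPM in total RNA (−0.10 ± 0.14, edgeR adjusted p = 0.543). The groups overlapped, but the gene was called lower with library totals alone (−0.54, edgeR adjusted p = 0.0107) and with an offset for gene length (−0.38, edgeR adjusted p = 0.0437). Ccnb3, a B-type cyclin best known from meiosis, had 3.19, 1.03 and 1.60 CPM in the IP and 1.30, 0.871 and 0.809 CPM in total RNA (0.96 ± 0.53, edgeR adjusted p = 0.151). It passed without IP 2 (1.25, edgeR adjusted p = 0.0325). With all libraries, 0 of the 5 tested cyclins of this list were enriched and 3 were depleted (28.9% and 33.6% of all genes tested). Their median was −0.80. None was higher at an unadjusted p under 0.05 in edgeR, and DESeq2 and limma-voom also called 0 enriched.

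The 4 kinases of the cell cycle went different ways. Cdk1 (ENSMUSG00000019942.13, chr10:69335146-69352938, minus strand), the mitotic kinase, had 12.5, 12.6 and 17.03 CPM in the IP and 76.6, 89.5 and 90.3 CPM in total RNA. That was 6.08-fold lower in the precipitate, the lowest value of the family (log2 fold change −2.60 ± 0.16, edgeR adjusted p = 5.17e-06). Cdk4, the main partner of D cyclins here, had 58.2, 37.6 and 63.9 CPM in the IP and 113, 136 and 135 CPM in total RNA (−1.26 ± 0.20, edgeR adjusted p = 0.000681). Thus Ccnd2 and its partner Cdk4 were called in opposite directions. Cdk4 shares 19.7% of its exon bases with Tspan31 on the opposite strand, and Tspan31 was enriched (0.58 ± 0.10, edgeR adjusted p = 0.00110).

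Cdk6, the second partner of D cyclins, was rare and enriched. It had 5.25, 6.31 and 3.39 CPM in the IP and 1.73, 1.85 and 1.54 CPM in total RNA, 2.91-fold higher in the precipitate (1.54 ± 0.32, edgeR adjusted p = 0.00318). The groups did not overlap, and with an offset for gene length the value was 0.89 (edgeR adjusted p = 0.0294). Per exon length Cdk6 was 0.312% ± 0.0454 of the Cdk4 and Cdk6 reads in total RNA and 2.34% ± 1.29 in the IP.

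Cdk2, the partner of cyclins E and A, had 41.4, 34.6 and 35.3 CPM in the IP and 29.9, 33.2 and 34.5 CPM in total RNA. The IP libraries were all higher, by a margin too small for the test (0.19 ± 0.12, edgeR adjusted p = 0.206), and with library totals alone the value was −0.24. With Cdk1 and Cdk4 depleted, the share of Cdk2 among the reads per exon length of the 4 kinases was 23.8% ± 4.05 in the IP and 8.46% ± 0.281 in total RNA. The share of Cdk1 was 11.3% ± 1.83 and 27.9% ± 0.188, and that of Cdk4 was 63.5% ± 5.36 and 63.4% ± 0.479. The merged exons of Cdk2 cover 6219 bases and its longest protein-coding transcript 2406, against 4934 and 4375 in Cdk1. These shares therefore depend on which length is taken.

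**Figure D2:**
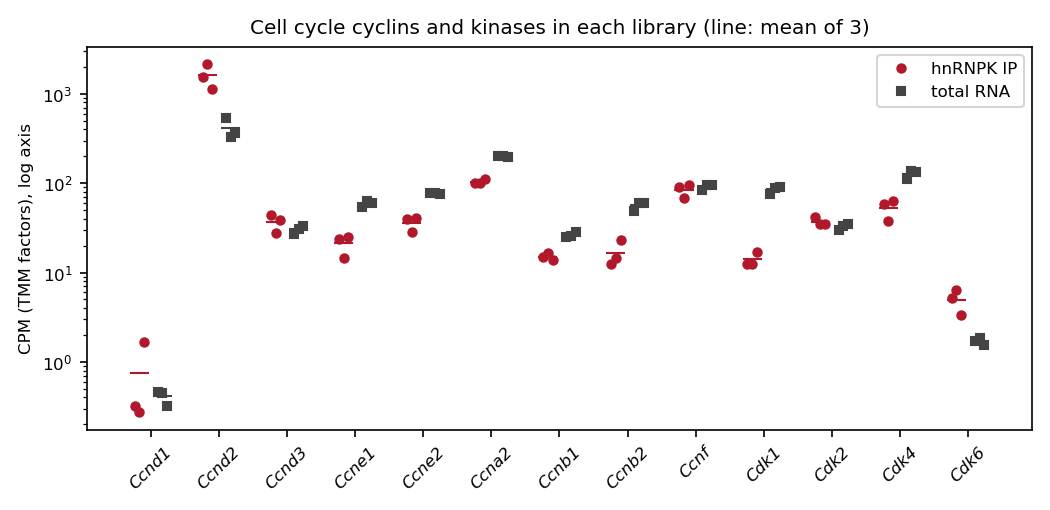
CPM on a log axis of 13 cell cycle cyclins and kinases in each hnRNPK IP library (circles) and each total RNA library (squares), with a line at the mean of 3. Ccnd2 sits highest in both groups with the IP above total RNA, Cdk1 shows the widest gap with the IP below, and Ccnd1 lies under 2 CPM in all 6 libraries.

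The transcription and splicing cyclins were all called, 3 enriched and 5 depleted of 8 (median log2 fold change −1.28). Of their 8 kinases, 2 were enriched and 4 depleted (median −0.74). The shares over all genes tested were 28.9% enriched and 33.6% depleted. Described by complex, cyclin K with Cdk12 and Cdk13, which phosphorylate the RNA polymerase II tail during elongation, was the set in which every subunit was enriched. Ccnk (ENSMUSG00000021258.10, chr12:108179579-108203359, plus strand) had 345, 326 and 345 CPM in the IP and 54.1, 48.6 and 48.9 CPM in total RNA. This 6.70-fold difference was the highest of the family (2.75 ± 0.09, edgeR adjusted p = 1.23e-06). Cdk12 had 147, 226 and 123 CPM in the IP and 40.0, 35.8 and 35.9 CPM in total RNA (2.15 ± 0.22, edgeR adjusted p = 6.44e-05). Cdk13 had 105, 97.8 and 106 CPM in the IP and 64.0, 56.2 and 53.5 CPM in total RNA (0.83 ± 0.10, edgeR adjusted p = 0.000175). All 3 genes had their IP libraries above their total RNA libraries. With an offset for gene length Cdk13 fell to 0.23 and was no longer called (edgeR adjusted p = 0.0877).

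The positive elongation factor P-TEFb joins Cdk9 to cyclin T1 or T2. Ccnt1 was enriched (0.59 ± 0.16, edgeR adjusted p = 0.0134), a call that ended with library totals alone (0.16, edgeR adjusted p = 0.431) and with an offset for gene length (0.20, edgeR adjusted p = 0.209). Ccnt2 was depleted (−1.23 ± 0.10, edgeR adjusted p = 2.28e-05). Cdk9 itself had 9.62, 6.91 and 11.4 CPM in the IP and 31.5, 32.3 and 35.7 CPM in total RNA, 3.56-fold lower in the precipitate without overlap (−1.83 ± 0.20, edgeR adjusted p = 8.87e-05).

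In the kinase module of Mediator, cyclin C pairs with Cdk8 or its paralog Cdk19. Ccnc had 63.4, 94.2 and 57.7 CPM in the IP and 38.8, 33.0 and 31.5 CPM in total RNA, 2.08-fold higher in the precipitate with no overlap (1.06 ± 0.19, edgeR adjusted p = 0.00171). Cdk8 was slightly lower (−0.26 ± 0.09, edgeR adjusted p = 0.0337), and 11 of 15 alternative analyses ended that call. Cdk19 did not pass (0.24 ± 0.10, edgeR adjusted p = 0.0739), although 4 of the 15 called it.

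The Cdk-activating kinase, which is also part of the general transcription factor TFIIH, is made of Cdk7, cyclin H and Mnat1. Ccnh was depleted (−1.33 ± 0.16, edgeR adjusted p = 0.000171). Mnat1, the assembly factor, was depleted as well (−2.73 ± 0.50, edgeR adjusted p = 0.00179). Cdk7 had a log2 fold change of −1.21 ± 0.47 and missed the threshold (edgeR adjusted p = 0.0538). It was called in 7 of 15 alternatives, and without IP 2 the value was −2.03 (edgeR adjusted p = 4.23e-05).

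The L cyclins and Cdk11, which act in splicing, were depleted together. Ccnl1 had 3.99, 0.940 and 2.62 CPM in the IP and 13.9, 14.8 and 14.1 CPM in total RNA (−2.50 ± 0.45, edgeR adjusted p = 0.00149). Ccnl2 was at −2.04 ± 0.12 (edgeR adjusted p = 4.28e-06). Cdk11b had 20.8, 31.04 and 31.2 CPM in the IP and 112, 119 and 118 CPM in total RNA, 4.19-fold lower in the precipitate (−2.07 ± 0.16, edgeR adjusted p = 1.82e-05). None of the 3 genes had an IP library within the range of total RNA.

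Cyclin Q and its kinase Cdk10 were both depleted. Ccnq had 1.86, 4.00 and 2.29 CPM in the IP and 10.4, 11.6 and 11.6 CPM in total RNA (−2.04 ± 0.31, edgeR adjusted p = 0.000570). Its exons span only 1224 bases, and with an offset for gene length the value was −0.91 and the call ended (edgeR adjusted p = 0.0643). Cdk10 was at −1.63 ± 0.25 (edgeR adjusted p = 0.000637).

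**Figure D3:**
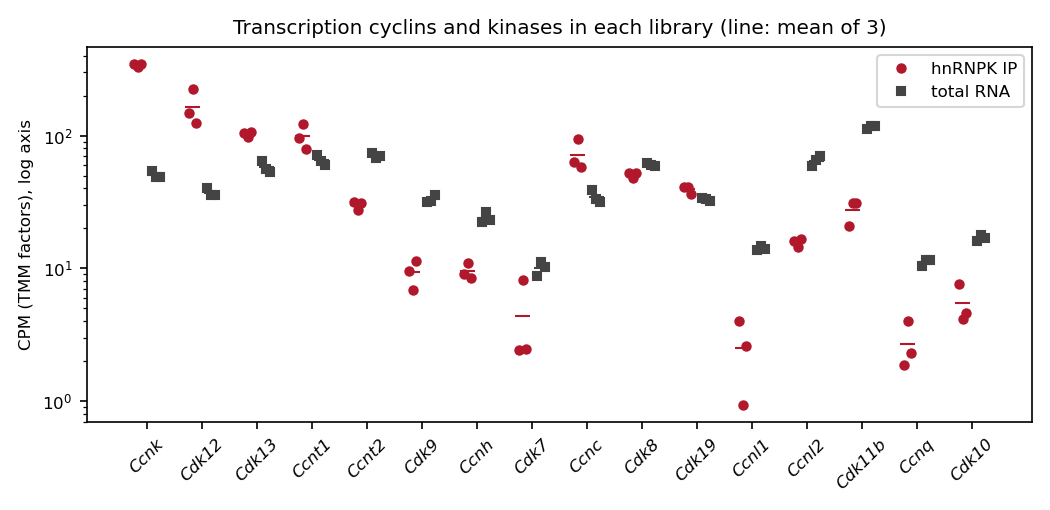
CPM on a log axis of 16 transcription and splicing cyclins and kinases, ordered by complex, in each hnRNPK IP library (circles) and each total RNA library (squares), with a line at the mean of 3. Ccnk, Cdk12 and Cdk13 have the IP above total RNA, while Ccnl1, Ccnl2, Cdk11b, Ccnq and Cdk10 have it below.

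Among the remaining cyclins, 4 were enriched and 2 depleted of 9 tested (28.9% and 33.6% of all genes tested). Their median was 0.39 (−0.05 to 0.74 over the alternatives). The paralogs Ccng1 and Ccng2 were called in opposite directions. The enriched count was 2 with library totals alone, without a filter on low counts, with replicate number in the fit, and without total RNA 2, total RNA 3 or IP 1. Ccni, an atypical cyclin and the most abundant member per length, had 1745, 1593 and 1729 CPM in the IP and 394, 358 and 376 CPM in total RNA. It was 4.49-fold enriched (2.17 ± 0.08, edgeR adjusted p = 1.28e-06), and its libraries were close to each other within each group. Ccng1, a target of p53, was enriched (0.95 ± 0.11, edgeR adjusted p = 0.000133). Ccng2, a cyclin linked to cell cycle arrest, had 7.26, 5.21 and 8.13 CPM in the IP and 27.4, 27.6 and 28.1 CPM in total RNA. It was 4.02-fold lower in the precipitate (−2.01 ± 0.19, edgeR adjusted p = 4.16e-05).

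Ccndbp1, the D-type cyclin binding protein, had 15.5, 10.2 and 12.5 CPM in the IP and 28.1, 32.7 and 32.2 CPM in total RNA (−1.28 ± 0.18, edgeR adjusted p = 0.000349). The Y-type cyclins, which recruit Cdk14 and Cdk16 to membranes, had small values. Ccnyl1 was at 0.44 ± 0.16 (edgeR adjusted p = 0.0489) and Ccny at 0.29 ± 0.10 (edgeR adjusted p = 0.0411). Each of these calls ended in 8 of 15 alternatives, and with library totals alone Ccnyl1 was at 0.004 (edgeR adjusted p = 0.987) and Ccny turned to −0.15 (edgeR adjusted p = 0.266).

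Ccnj, Ccnjl and Ccno did not pass. Ccnj had a log2 fold change of −0.77 ± 0.32 (edgeR adjusted p = 0.0702), and 4 of 15 alternatives called it. Ccnjl had 0.620, 1.70 and 0.299 CPM in the IP and 0.225, 0.408 and 0.659 CPM in total RNA (1.01 ± 0.83, edgeR adjusted p = 0.323). Ccno, known from multiciliated cells, was at 0.39 ± 1.21 (edgeR adjusted p = 0.800), and its 0 reads in IP 1 allow up to 0.0886 CPM there.

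The kinases outside both branches included 3 enriched and 2 depleted of 7 tested (28.9% and 33.6% of all genes tested). Their median was 0.29, and −0.15 with library totals alone. Among the PCTAIRE kinases, which are expressed in neurons and other postmitotic cells, Cdk18 and Cdk16 were enriched and Cdk17 was depleted. Cdk18 had 92.8, 98.5 and 114 CPM in the IP and 21.6, 22.3 and 22.4 CPM in total RNA, 4.60-fold higher in the precipitate (2.20 ± 0.11, edgeR adjusted p = 2.62e-06). Cdk16 had 594, 611 and 591 CPM in the IP and 269, 266 and 258 CPM in total RNA (1.18 ± 0.07, edgeR adjusted p = 5.49e-06). Both genes had narrow groups that lay far apart. Cdk17 had 11.7, 11.8 and 7.03 CPM in the IP and 17.3, 15.7 and 15.3 CPM in total RNA (−0.66 ± 0.22, edgeR adjusted p = 0.0312). Its groups did not overlap, but the call ended when any 1 total RNA library was left out (−0.57, −0.65 and −0.66 without total RNA 1, 2 and 3, with edgeR adjusted p of 0.119, 0.0929 and 0.0850).

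Cdk14, the PFTAIRE kinase that works with cyclin Y in Wnt signalling, was enriched (1.10 ± 0.11, edgeR adjusted p = 6.48e-05), and at 0.31 with an offset for gene length (edgeR adjusted p = 0.00720). Its merged exons cover 18877 bases, while its longest protein-coding transcript has 5145. Cdk15, the other PFTAIRE kinase, did not pass (0.29 ± 0.30, edgeR adjusted p = 0.420). Neither did Cdk20 (0.13 ± 0.22, edgeR adjusted p = 0.630), and the groups overlapped for both genes.

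Cdk5, a kinase active in neurons and in insulin secretion, was depleted while its activator was enriched. Cdk5 had 14.4, 7.82 and 14.6 CPM in the IP and 33.9, 45.1 and 43.5 CPM in total RNA, 3.32-fold lower in the precipitate with no overlap (−1.73 ± 0.25, edgeR adjusted p = 0.000479). With an offset for gene length the value was −1.04 (edgeR adjusted p = 0.000970). Of 5 Cdk5 activators and associated genes, 1 was enriched and 2 were depleted (28.9% and 33.6% of all genes tested). Their median was −0.10 (−0.68 to 0.01 over the alternatives). The activator Cdk5r2 (p39) was enriched (2.35 ± 0.15, edgeR adjusted p = 7.20e-06), and Cdk5r1 (p35) was at 0.16 ± 0.15 without passing (edgeR adjusted p = 0.390). Cdk5rap1 and Cdk5rap3 were depleted (−1.89 ± 0.41 and −2.11 ± 0.14, edgeR adjusted p = 0.00407 and 8.23e-06).

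Ratios within a library need no scaling between libraries, so the paralogs were also compared as log2 ratios of their reads in each library (with 0.5 added to each count and no length correction, so that the difference between groups and not the ratio itself is read). In 12 of 16 pairs the 3 IP ratios lay entirely to one side of the 3 total RNA ratios, and in 4 pairs they overlapped. Groups that do not overlap were the usual outcome here, since they were seen for 71.4% of single genes, and no share over other gene pairs was computed. The exact permutation test of 3 against 3 libraries cannot go below p = 0.10 two-sided, and those 12 pairs had that value (0.133 after Benjamini-Hochberg adjustment over 16 pairs), so no pair could pass 0.05. The Ccng1 to Ccng2 ratio was 5.89 ± 0.44 in the IP and 2.90 ± 0.18 in total RNA, a difference of 2.99 or 7.93-fold. For Cdk17 to Cdk18 the difference was −2.90 (7.44-fold), for Cdk1 to Cdk2 −2.80 (6.98-fold) and for Cdk4 to Cdk6 −2.79 (6.92-fold). Smaller shifts were seen for Cdk16 to Cdk17 (1.88), Ccnt1 to Ccnt2 (1.81), Ccnd2 to Ccnd3 (1.71), Cdk12 to Cdk13 (1.27), Cdk16 to Cdk18 (−1.02), Ccnb1 to Ccnb2 (1.00), Cdk8 to Cdk19 (−0.50) and Ccne1 to Ccne2 (−0.40). The overlapping pairs were Ccnd1 with Ccnd2, Ccnd1 with Ccnd3, Ccnl1 with Ccnl2 (−0.69, exact permutation p = 0.40) and Ccny with Ccnyl1 (−0.13, exact permutation p = 0.80). The 16 pairs share genes and are not independent.

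**Figure D4:**
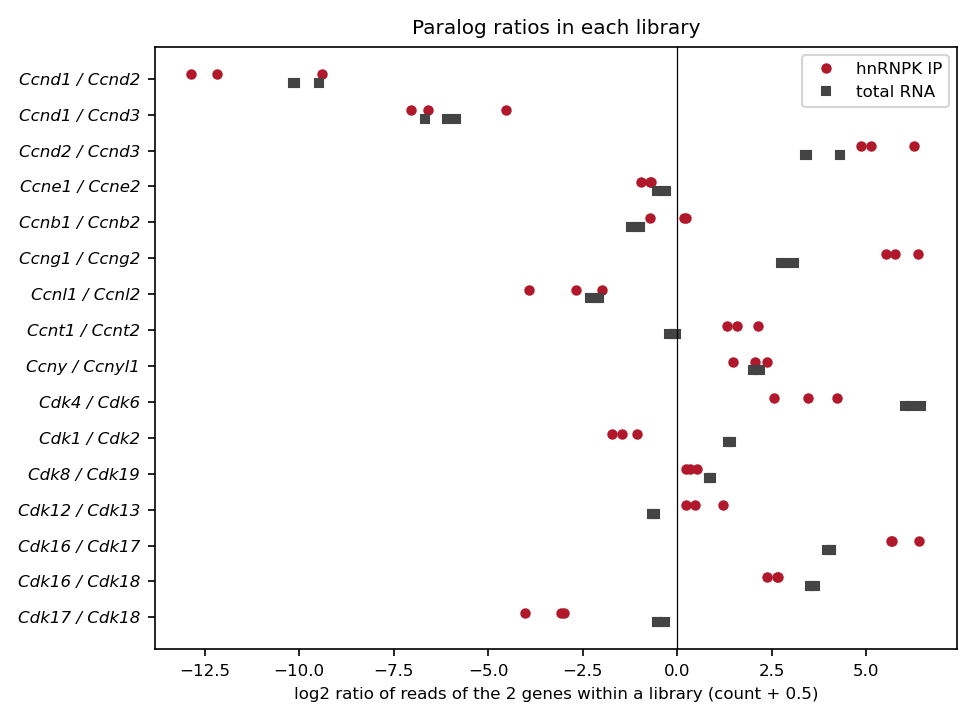
Log2 ratio of the reads of 2 paralogs within each library (x axis) for 16 pairs, with hnRNPK IP libraries as circles and total RNA libraries as squares. The Ccng1 to Ccng2, Ccnt1 to Ccnt2 and Cdk16 to Cdk17 ratios lie higher in all 3 IP libraries, the Cdk1 to Cdk2 and Cdk4 to Cdk6 ratios lie lower, and Ccny to Ccnyl1 overlaps.

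Transcript features gave at most a moderate order across the tested members. The longest annotated 3′ UTR had a median of 1204 bases in the members and 1194 in all protein-coding genes tested. Spearman's rho of its length with the log2 fold change was 0.46 over 46 members and 0.50 over 13415 genes. For the length of the longest protein-coding transcript rho was 0.52 over the members and 0.50 over 13481 genes, and for merged exon length 0.25 and 0.38. Transcript and merged exon lengths include the 3′ UTR. The length of the coding sequence alone gave a rho of 0.10 over the members and 0.27 over 13481 genes. For the density of CCCC in the 3′ UTR (sense strand, overlapping matches counted), rho was 0.34 over the members and 0.32 over 12983 genes. For CCCC in the coding sequence it was 0.13 and 0.24, and for GC content of the 3′ UTR 0.00 and 0.09. Median CCCC density in the 3′ UTR was 2.18 per kb in the members and 3.42 per kb in all genes. At least 1 CCCC was found in 37 of 47 members (78.7%) and in 79.3% of all 3′ UTRs of at least 100 bases. These relations are descriptions across genes of the same 6 libraries, genes are not independent replicates, and length and the number of CCCC matches are linked.

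Single members depart widely from some of these relations. Ccnk, at the top of the family, has a 3′ UTR of only 658 bases, but its 12.2 CCCC per kb is the highest density of the members. Cdk1, at the bottom, has 3352 bases with 4.77 per kb, and Cdk4, also depleted, has 10.0 per kb. Ccnt1 and Ccnt2 have 3′ UTRs of nearly the same length, 4522 and 4502 bases, with 0 and 0.666 CCCC per kb, and were called in opposite directions.

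**Figure D5:**
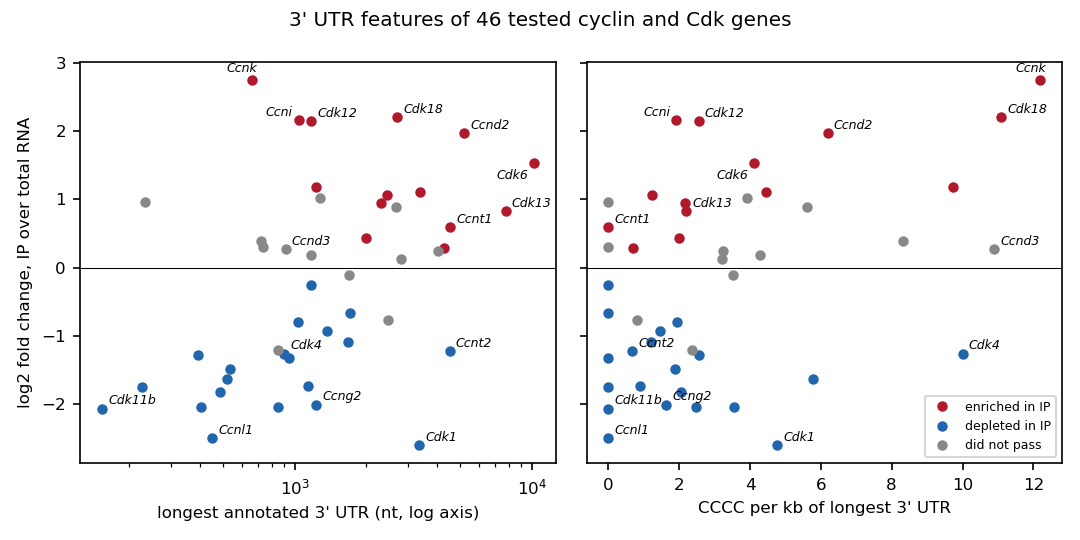
Log2 fold change (y axis) of the 46 tested members against the length of the longest annotated 3′ UTR (left, log axis) and the density of CCCC in it (right), coloured by call. Members with longer 3′ UTRs tend to lie higher (rho 0.46), while Cdk1 lies lowest in spite of a 3′ UTR of 3352 bases.

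Genes around the family were read from lists of inhibitors, targets and partners. The shares to set beside the counts of each list are 28.9% enriched and 33.6% depleted over all genes tested. Of 8 CDK inhibitor genes, 2 were enriched and 4 depleted (median −0.98, −1.41 to −0.22 over the alternatives). The Cip/Kip inhibitors Cdkn1a (p21) and Cdkn1b (p27) were at 2.15 ± 0.15 and 1.16 ± 0.08 (edgeR adjusted p = 8.63e-06 and 7.70e-06). The Ink4 inhibitors Cdkn2a and Cdkn2d, which block Cdk4 and Cdk6, were at −2.67 ± 0.18 and −3.09 ± 0.35 (edgeR adjusted p = 8.28e-06 and 0.000123).

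Downstream of the D cyclins, 8 of 13 Rb and E2F genes were enriched and 3 depleted (28.9% and 33.6% of all genes tested). Their median was 0.87 (0.34 to 0.94 over the alternatives). The depleted count was 2 in most alternatives and 4 with library totals alone. The enriched count was 7 with library totals alone and with an offset for gene length. E2f4 and E2f7, which act mainly as repressors, were highest (1.98 ± 0.12 and 1.95 ± 0.11, edgeR adjusted p = 5.79e-06 and 3.61e-06). E2f1, an activator of S phase genes, and the dimer partner Tfdp1 were lowest (−1.69 ± 0.10 and −0.69 ± 0.10, edgeR adjusted p = 4.20e-06 and 0.000535).

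Among 14 genes for CDK phosphorylation, Cks subunits and cyclin turnover, 2 were enriched and 8 depleted (median −1.01). The higher end held Ambra1, a ligase adaptor for D cyclins, and the phosphatase Cdc25a (0.43 ± 0.09 and 0.34 ± 0.11, edgeR adjusted p = 0.00374 and 0.0255), and no gene of the list was called enriched with library totals alone, where 11 were depleted. The enriched count was 1 without total RNA 3, IP 1 or IP 3, without a filter on low counts and with replicate number in the fit. It was 3 with DESeq2 size factors, a filter at a mean of 1 CPM, halved counts and the DESeq2 Wald test. Mnat1, given above, and the CDK-binding subunit Cks1b (−2.51 ± 0.19, edgeR adjusted p = 1.35e-05) were lowest.

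The 12 partners of P-TEFb and of the Mediator kinase module were all called, 9 enriched and 3 depleted (28.9% and 33.6% of all genes tested). Their median was 1.12 (0.68 to 1.27 over the alternatives). With library totals alone, an offset for gene length, or without total RNA 2, total RNA 3 or IP 1, 7 were enriched and 2 or 3 depleted. With replicate number in the fit or without IP 2, 8 were enriched. The groups overlapped for 1 of the enriched genes. The Mediator subunit Med13 was at 1.69 ± 0.17 (edgeR adjusted p = 6.14e-05). The 7SK components that hold P-TEFb inactive lay lowest, with Hexim1 at −0.997 ± 0.13 and Larp7 at −2.34 ± 0.11 (edgeR adjusted p = 0.000269 and 2.02e-06).

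Of 8 proliferation markers, 1 was enriched (Mki67, 0.43 ± 0.14, edgeR adjusted p = 0.0258) and 6 were depleted, with Pcna lowest at −2.39 ± 0.17 (edgeR adjusted p = 1.09e-05). Over all genes tested, 28.9% were enriched and 33.6% depleted. The Mki67 call ended with library totals alone and without total RNA 2, total RNA 3, IP 1 or IP 2, where 0 of the 8 were enriched and 5 to 7 depleted.

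Some counts rest on shared sequence. Whether reads were counted by strand is not stated in the labels, so reads of Ccne2 (17.4% of its exon bases opposite Ints8), Ccna2 (12.5% opposite Exosc9), Cdk10 (9.69% opposite Spata2l) and Cdk17 (5.18% opposite Elk3) cannot be told apart from those of their neighbours there. Spata2l and Elk3 were enriched (1.24 ± 0.17 and 1.46 ± 0.09, edgeR adjusted p = 0.000387 and 6.46e-06), opposite in direction to Cdk10 and Cdk17, while Ints8 and Exosc9 were depleted like Ccne2 and Ccna2 (−0.77 ± 0.14 and −1.95 ± 0.17, edgeR adjusted p = 0.00135 and 2.86e-05). Ccnb1 is 99.2% identical to the processed pseudogene Ccnb1-ps over 1287 bases, and that copy drew 1223 reads in the IP and 4266 in total RNA (−1.15 ± 0.13, edgeR adjusted p = 0.000119). The Ccnb1 value is therefore uncertain. Near-identical copies of Ccni (Gm8983, 2.10 ± 0.11), Ccnyl1 (Gm16464, 0.87 ± 0.18) and Cdk8 (Gm7107, −0.18 ± 0.24) had log2 fold changes of the same sign as the genes themselves (edgeR adjusted p = 3.22e-06, 0.00341 and 0.549).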

How the data were processed

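Each library's deposited file gave read counts per Ensembl gene. TopHat2, featureCounts and the build mm10 are named in the submitters' processing notes. Per the file headers, the counts are the authors' counts of accepted TopHat2 hits from a run on 2 data sets. Neither headers nor labels state versions, annotation, strand or the handling of multiple mapping. The Ensembl IDs were named with GENCODE M21 (53274 matched, 105 did not). The counts were fitted in edgeR 4.0.16 (R 4.3.3) with TMM factors, filterByExpr (minimum count 10, total 15) and the quasi-likelihood F test of group, with Benjamini-Hochberg adjustment over 16929 genes and a threshold of 0.05. The SE is the log2 fold change divided by the square root of F. The fit was also run on simulated counts with a common dispersion for all genes and both groups. The spread of the real libraries differed between the groups, so that run does not measure the error rate of the test here. Merged exon lengths gave RPKM. Near-identical copies (at least 95% identity over 300 bases) were sought with BLAST 2.17.0, and permutations used scipy 1.17.1. Alternatives used DESeq2 1.42.0 and limma 3.58.1, other scalings and filters, and left out each library.

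Values in every library are given for Ccnd1, Ccnd2, Ccnd3, Cdk4, Cdk5, Cdk6 and the 2 highest and 2 lowest members of each role list. The pathway lists are represented by their 2 highest and 2 lowest genes, except for an item that is not reported here. The members and lists were chosen with earlier results of these data known. Same-group libraries differed by more than counting noise (chi-square per degree of freedom 6.38 to 125), and were all kept.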

Additional observations from a re-analysis of the deposited data

How the results depend on the processing

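Of the 34 called members, 27 kept their direction and call under all 15 alternatives. The 7 that did not were Ccnq, Ccnt1, Ccny, Ccnyl1, Cdk8, Cdk13 and Cdk17, and 6 of 12 uncalled members passed in at least 1 alternative (Ccnb3, Ccnd3, Ccnf, Ccnj, Cdk7 and Cdk19). Ccny reversed to −0.15 with library totals alone. Enriched members numbered 11 to 15 and depleted members 18 to 23. Leaving out 1 library gave 12 to 15 and 18 to 21, and 38 to 40 members without overlap. An offset for gene length moved the median of all genes by 0.25 and moved 6 called members by over 1.5-fold, among them Ccnb2 to −0.81 (edgeR adjusted p = 0.00184). The cause was not tested. Over all genes, rho of CCCC density with the log2 fold change was 0.29 over whole longest protein-coding transcripts. The labels number the replicates in both groups, but same-numbered libraries did not deviate together (r = 0.000874, −0.0709 and 0.120), so the numbers were not used to pair them. The labels do not say whether a numbered IP and total RNA library share a lysate. A replicate block gave 12 enriched and 21 depleted members. Precision was lowest for Ccno, Ccnd1, Ccnjl and Ccnb3 (SE 1.21, 0.85, 0.83 and 0.53), which had few reads.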
